A study of Mus musculus with 6 samples.

Results

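Amino acid and peptide transporters are the 55 genes of the solute carrier families SLC1, SLC3, SLC7, SLC15, SLC36, SLC38 and SLC43, with 7 members of SLC6 and the aromatic amino acid carrier Slc16a10. They were picked by gene symbol from the 32219 genes of the table, and all 55 were found. The table covers 6 RNA-seq libraries of mouse intestine, 3 from animals labelled knockout (KO 1 to KO 3) and 3 labelled wild type (WT 1 to WT 3). The labels give the cells as epithelial, immune and enteric neuronal, and do not name the deleted gene, the strain, the age or the sex. They do not say whether each library is a separate animal, so the tests weigh differences against a spread that may be technical. The series title speaks of GPR41 (Ffar3) and DHX9 in enteric neurons, and its design text names the whole duodenum. No treatment is given for either group.

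Dietary protein is absorbed as single amino acids and as di- and tripeptides. Carriers of the brush border, the microvillus face of the enterocyte, bring these in with the help of sodium or proton gradients, and exchangers and facilitators of the basolateral face pass amino acids on to the blood. Heavy chains such as Slc3a1 (rBAT) and Slc3a2 (4F2hc) carry the light chains of the SLC7 family to the membrane. The SLC38 carriers and the cationic carriers of SLC7 feed most cell types, and several members sit in lysosomes.

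The gene table is incomplete for KO 1. Of the genes above 1 on average in the other libraries, 100% were listed at 0 in KO 1 on chromosomes 2 to 9 and X, and 61.2% on chromosome 19. KO 1 was therefore left out of the test, and 25 of the 55 transporters, those on chromosomes 1, 10 to 18 and the start of 19, have a value in it. On these, KO 1 ran high by a factor of 2.12, and its values are given after division by that factor ("rescaled"). The other 5 libraries listed 22061 to 22768 genes above 0. Depth is unknown, since the table holds log values and no counts. Dhx9 stood at 6.03 rescaled, 6.17 and 6.08 in KO 1 to KO 3, against 5.94, 6.01 and 5.97 in WT. Ffar3 was near 0, at 0.35 and 0.59 in KO 2 and KO 3, against 0.60, 0.18 and 0.46 in WT. KO 1 has no value for Ffar3. Levels are on the deposited log scale, read as log2(abundance + 1). The unit of abundance is not given, so levels are compared between libraries for 1 gene and not between genes.

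Of the 55 transporters, 38 had a mean of 1 or more over the 5 libraries and 17 were below 1. Slc7a12 and Slc7a13 were listed at 0 in all 5 libraries, and Slc1a6, a glutamate carrier of Purkinje cells, was above 0 in too few of them to be tested. The other 52 entered the fit of all 22047 genes kept. Exons of 15 transporters overlap a gene on the opposite strand, among them Slc1a1, Slc1a2, Slc3a1, Slc6a6, Slc6a20a, Slc7a4, Slc7a7, Slc7a10 and Slc38a10, and the strand setting of the counting is not given.

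In KO 2 and KO 3 against WT, no transporter passed the test. limma with Benjamini-Hochberg adjustment over all genes called 0 of the 52, where it called 0.00454% of all genes, and every one of the 52 had an adjusted p of 0.99998. At an unadjusted p under 0.05 there were 2, Slc15a2 and Slc1a2, while 2.23% of all genes reached that mark. A positive fold was seen for 38 of the 52 and a negative one for 14, and 61.1% of all genes tested had a positive fold. The median log2 fold was 0.06 over the 52 transporters and 0.03 over all genes tested. Of the 38 with a mean of 1 or more, 29 had a positive fold and 9 a negative one (76.3% positive), and of all genes at that level 62.7% had a positive fold. Groups that do not overlap were seen for 5 transporters, Slc15a2, Slc1a2, Slc1a5, Slc1a1 and Slc38a10, all higher in KO. Among all genes tested, 9.82% had non-overlapping groups with KO higher and 3.77% with KO lower, so the 5 of 52 is near the background.

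**Figure D1:**
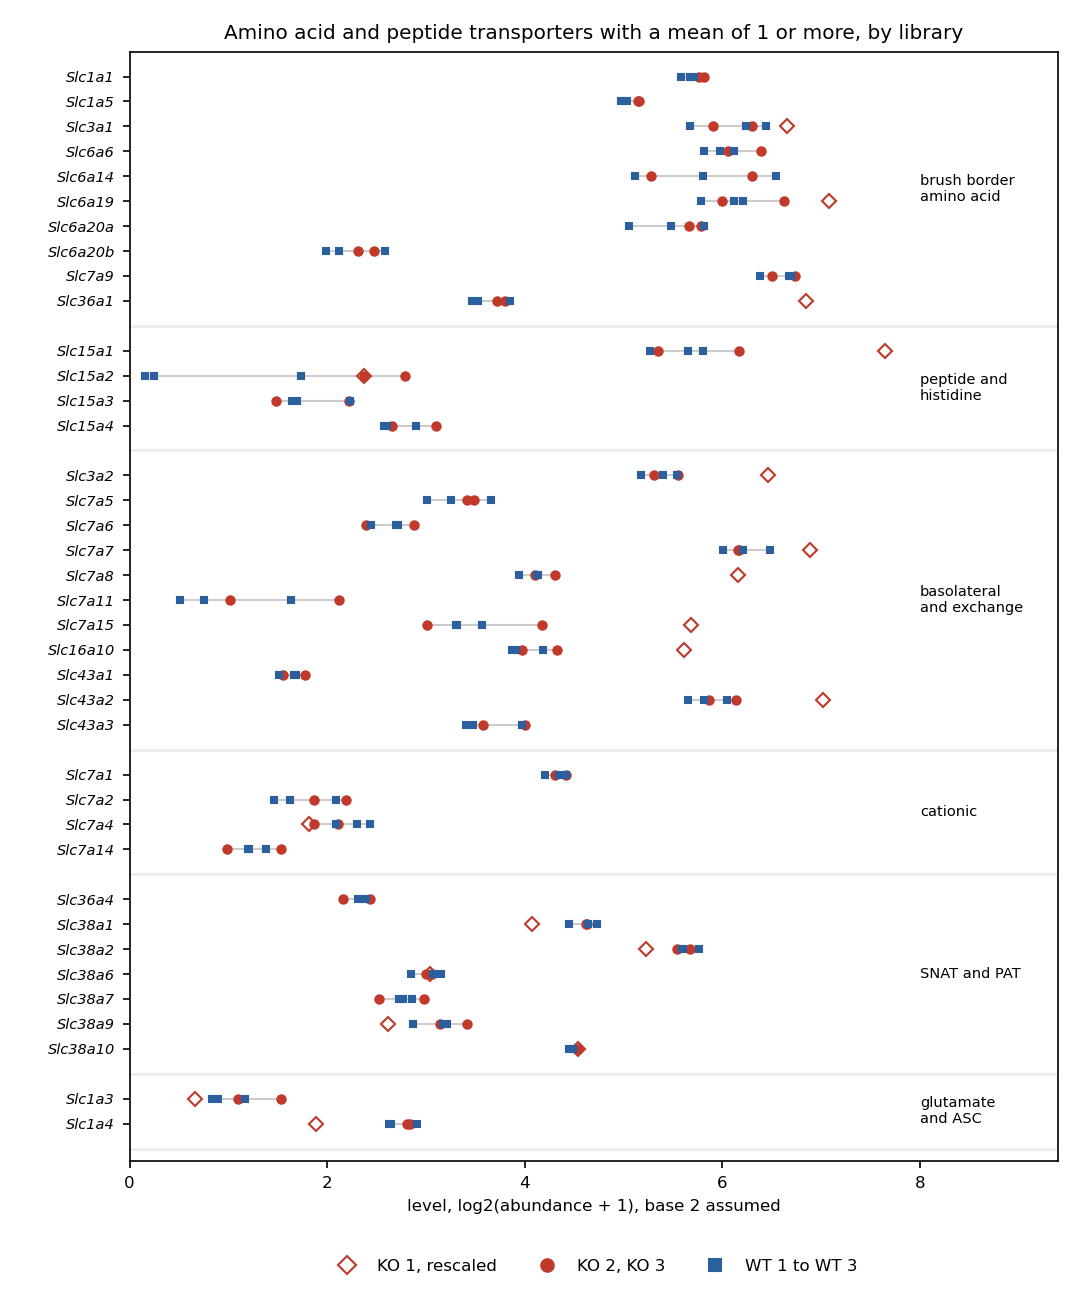
Level of each transporter with a mean of 1 or more (horizontal axis, log2(abundance + 1)) in KO 2 and KO 3 (red circles), WT 1 to WT 3 (blue squares) and, where it has values, KO 1 after rescaling (open red diamonds); grey lines span the 5 libraries without KO 1. The circles lie among the squares for most genes, Slc15a2 has its WT squares at 0.16, 0.25 and 1.74 below its circles, and the diamonds stand far to the right for Slc36a1, Slc15a1, Slc7a8, Slc7a15 and Slc16a10.

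The peptide carriers hold the transporter with the widest difference between the groups. Slc15a2 (PEPT2), a high-affinity peptide carrier best known from kidney and brain (mm10 chromosome 16, 36750177 to 36784962, minus strand, protein-coding), stood at 2.79 in KO 2 and 2.38 in KO 3, against 0.16, 0.25 and 1.74 in WT. KO 1 lay beside them at 2.37 rescaled. All 3 KO libraries were thus above all 3 WT libraries, but WT 3 was much closer to the KO values than to WT 1 and WT 2. KO 1 also stood apart in markers of tissue makeup and gut position, given below. The part of these in its values here was not tested. The log2 fold without KO 1 was 1.87 ± 0.49 (SE; 2 KO and 3 WT libraries; limma adjusted p = 0.99998), and with KO 1 rescaled it was 1.80 ± 0.43 (adjusted p = 0.99994). With an added constant of 0.1 the fold was 3.25 and with a constant of 5 it was 0.79, WT 1 and WT 2 being near 0. Among the 24 transporters that KO 1 covers and that were tested, Slc15a2 and Slc38a10 had all 3 KO libraries above all 3 WT libraries, where 3.51% of covered genes did. In 0 of the 24 were all 3 KO libraries below all 3 WT libraries, where 2.72% of covered genes were.

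The nearest genes with a mean of 1 or more on either side of Slc15a2 were examined too, and genes below that level were passed over. Ildr1, at lower coordinates, stood at 3.40 and 3.28 in KO 2 and KO 3, against 3.19, 3.01 and 3.72 in WT. Iqcb1, at higher coordinates, stood at 2.32 and 2.15 in KO 2 and KO 3, against 2.05, 2.35 and 2.17 in WT. In both genes KO 2 and KO 3 overlapped WT, and KO 1 lay below all 5, at 1.63 and 1.05 rescaled. S100b, a marker of enteric glia, stood at 0.61 and 0.995 in KO 2 and KO 3, against 1.19, 1.13 and 0.92 in WT.

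The promoter of Slc15a2 is shown because this gene had the widest gap between the groups, with those of Slc7a15 and Slc7a11 because they varied most between libraries among the exchangers. Each runs from 250 bases before to 50 bases after the start given by RefSeq on GRCm38.p6, on the strand of the gene. Capitals mark matches, on either strand, to AGATAA (the core bound by GATA factors), TTTATNG (CDX factors), TGATGNAA (ATF4 with a CEBP partner) and CAAAGTCCA (HNF4), and these matches do not overlap one another.
Slc15a2, chr16:36784913-36785212, minus strand: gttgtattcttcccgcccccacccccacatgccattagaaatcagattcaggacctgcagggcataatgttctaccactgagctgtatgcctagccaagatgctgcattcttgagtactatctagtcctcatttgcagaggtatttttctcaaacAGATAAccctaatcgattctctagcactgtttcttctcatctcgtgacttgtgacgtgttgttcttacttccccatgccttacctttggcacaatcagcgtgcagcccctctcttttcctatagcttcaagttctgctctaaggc
Slc7a15, chr12:8599017-8599316, minus strand: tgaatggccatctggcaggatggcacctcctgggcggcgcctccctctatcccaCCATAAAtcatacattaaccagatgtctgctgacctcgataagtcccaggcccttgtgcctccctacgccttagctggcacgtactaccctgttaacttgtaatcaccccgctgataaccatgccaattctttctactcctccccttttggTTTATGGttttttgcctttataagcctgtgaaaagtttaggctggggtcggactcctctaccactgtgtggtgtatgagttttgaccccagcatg
Slc7a11, chr3:50443564-50443863, minus strand: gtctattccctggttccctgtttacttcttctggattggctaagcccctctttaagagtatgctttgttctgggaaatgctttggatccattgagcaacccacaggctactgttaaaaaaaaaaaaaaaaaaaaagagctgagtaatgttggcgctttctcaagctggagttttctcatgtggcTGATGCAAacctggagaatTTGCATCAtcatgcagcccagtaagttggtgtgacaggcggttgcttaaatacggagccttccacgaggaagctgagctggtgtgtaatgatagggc
Slc15a2 holds 1 AGATAA, first base at -95. Slc7a15 holds 2 matches to TTTATNG, at -196 and -45, and a second listed start of this gene holds none. Slc7a11 holds 2 matches to TGATGNAA facing opposite ways, at -66 and -47. Of 32851 promoter entries of the same length, 11.2% hold AGATAA, 10.9% TTTATNG, 3.97% TGATGNAA and 0.475% CAAAGTCCA. Of the 51 entries found for 40 transporters, 6 hold the first, 2 the second, 5 the third and 1, that of Slc3a1, the fourth. Entries of 1 gene can overlap, so these are counts of entries and not of separate sites. In Slc7a7, 1 AGATAA and 1 TGATGNAA match each lie in 2 overlapping entries and are counted in both. The promoter entries of Slc36a1, Slc7a8, Slc15a1 and Slc16a10 hold none of the 4 sets of letters in this window.

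Slc15a1 (PEPT1), the proton-coupled carrier that takes up di- and tripeptides at the brush border, stood at 5.35 and 6.16 in KO 2 and KO 3, against 5.80, 5.27 and 5.65 in WT. KO 3 was the highest and KO 2 close to the lowest of the 5, so the groups overlapped. Slc15a3 (PHT2) and Slc15a4 (PHT1) are lysosomal carriers of peptides and histidine known from immune cells. Slc15a3 was at 2.22 and 1.48 in KO 2 and KO 3, against 1.69, 2.23 and 1.64 in WT. Slc15a4 was at 3.10 and 2.66 in KO 2 and KO 3, against 2.57, 2.90 and 2.61 in WT. In both, KO 2 and WT 2 were the highest libraries. The 5 macrophage markers (Csf1r, C1qa, C1qb, Adgre1, Lyz2) were also highest in these, with a mean level of 4.34 in KO 2 and 3.57 in KO 3, against 3.90, 4.39 and 3.71 in WT. The 4 B cell markers had mean levels of 3.86 in KO 2 and 1.28 in KO 3, against 1.78, 3.29 and 1.003 in WT. The part of these cells in the 2 lysosomal carriers was not tested, and in whole tissue fewer cells of a type cannot be told apart from less RNA per cell. Slc15a5, a little studied member, did not exceed 0.21 in any of the 5 libraries.

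**Figure D2:**
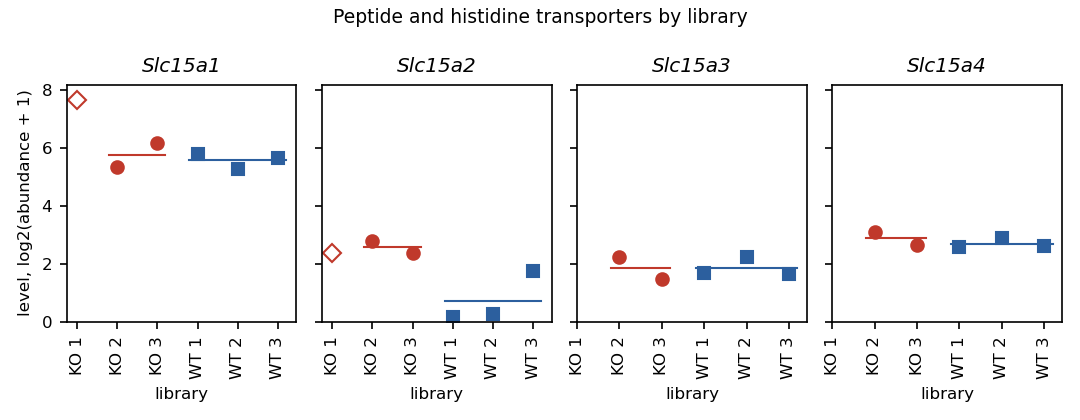
Levels (vertical axis, log2(abundance + 1)) of 4 peptide and histidine transporters in each library, KO libraries in red (KO 1 rescaled, open diamond, drawn where it has values) and WT libraries in blue; lines are the means of KO 2 with KO 3 and of the 3 WT libraries. Slc15a2 has its 3 KO points at 2.37 to 2.79 and its WT points at 0.16 to 1.74, and KO 1 stands at 7.65 for Slc15a1.

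The brush border amino acid carriers varied between libraries of the same group, and in most of them the groups overlapped. The class has 11 members, 10 of them with a mean of 1 or more, and of these 8 had a positive fold and 2 a negative one, with a median log2 fold of 0.15. Slc6a19 (B0AT1), the main sodium-coupled carrier of neutral amino acids, stood at 5.99 and 6.63 in KO 2 and KO 3, against 6.21, 5.78 and 6.12 in WT. Slc7a9, light chain of the cystine and cationic amino acid exchanger, stood at 6.50 and 6.74 in KO 2 and KO 3, against 6.69, 6.38 and 6.67 in WT. Its heavy chain Slc3a1 stood at 5.91 and 6.30 in KO 2 and KO 3, against 6.24, 5.68 and 6.44 in WT. In all 3 genes KO 3 exceeded KO 2, WT 2 was the lowest library, and the groups overlapped. Prepl is the opposite-strand gene whose exon overlaps Slc3a1.

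Slc6a14, a carrier of neutral and cationic amino acids, had the widest spread of the class, at 5.27 and 6.29 in KO 2 and KO 3, against 5.80, 5.12 and 6.55 in WT. Slc6a20a, a proline carrier, stood at 5.66 and 5.79 in KO 2 and KO 3, against 5.81, 5.48 and 5.05 in WT. Its paralog Slc6a20b, 2.2 kb away on chromosome 9, stood at 2.31 and 2.47 in KO 2 and KO 3, against 2.58, 1.99 and 2.12 in WT. WT 1 was the highest library for both, and reads could be split between these related genes. Slc36a1 (PAT1), a proton-coupled carrier of small neutral amino acids, stood at 3.72 and 3.80 in KO 2 and KO 3, against 3.85, 3.46 and 3.53 in WT. Slc6a18, a glycine and alanine carrier of the kidney that lies 1.7 kb from Slc6a19, was low, at 0.35 and 1.16 in KO 2 and KO 3, against 0.44, 0.27 and 0.25 in WT.

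A pair of carriers in this class had both KO values above all WT values by small amounts. Slc1a5 (ASCT2), an exchanger of neutral amino acids including glutamine, stood at 5.149 and 5.152 in KO 2 and KO 3, against 4.969, 4.998 and 5.038 in WT. Its log2 fold was 0.15 ± 0.08 (SE, limma adjusted p = 0.99998), and 0.09 with median centring. Slc1a1 (EAAT3), the brush border carrier of glutamate and aspartate, stood at 5.77 and 5.82 in KO 2 and KO 3, against 5.71, 5.58 and 5.67 in WT. The taurine carrier Slc6a6 was at 6.06 and 6.39 in KO 2 and KO 3, against 6.12, 5.82 and 5.97 in WT, with a log2 fold of 0.25 ± 0.14 (SE, limma adjusted p = 0.99998). Without KO 3 the fold of Slc6a6 was 0.09, and without KO 2 it was 0.42. KO 1 has no values at the positions of these 3 genes.

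How often the libraries kept 1 order was counted in a way chosen after the values were seen. KO 3 exceeded KO 2 in 10 of 10 brush border carriers with a mean of 1 or more, and in 46.4% of all genes at that level. WT 2 was the lowest of the 5 libraries in 8 of the 10, and in 16.2% of all genes. The median difference of the class from the WT mean was 0.08 in KO 2 and 0.22 in KO 3, against 0.14 in WT 1, -0.18 in WT 2 and 0.03 in WT 3. Enterocyte markers (10 of 10 detected, among them Apoa1, Sis and Alpi) were higher in KO 3 than in KO 2 for all 10 and lowest in WT 2 for 6. Their mean level was 6.43 in KO 2 and 7.11 in KO 3, against 6.61, 6.39 and 6.56 in WT. Smooth muscle markers, 6 of 6 detected, had mean levels of 7.26 and 7.68 in KO 2 and KO 3, against 7.19, 7.64 and 7.59 in WT. KO 3 exceeded KO 2 in 6 of 6 of these and in 6 of 6 enteric neuron markers with a mean of 1 or more. WT 2 was lowest in 0 of either. Goblet markers were lowest in WT 2 for 5 of 5, with KO 3 above KO 2 in 3. For the 4 stem and 3 Paneth markers both counts were 0. The marker and partner lists share genes. The part of the enterocyte content in the carriers was not tested.

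**Figure D3:**
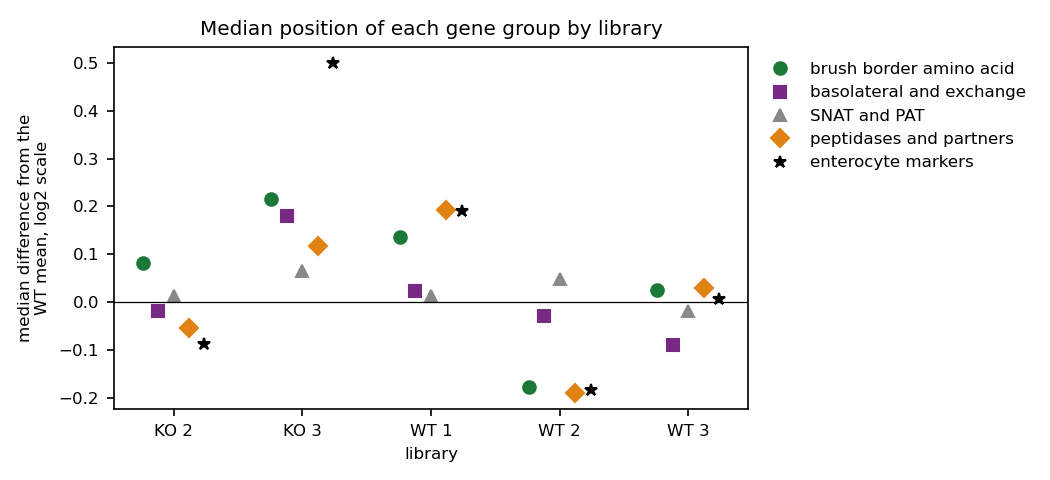
Median difference from the WT mean (vertical axis, log2 scale) of 3 transporter classes, of the brush border peptidases and transporter partners, and of the enterocyte markers, in each of the 5 libraries without KO 1. Brush border carriers and enterocyte markers are highest in KO 3, at 0.22 and 0.50, and low in WT 2, at -0.18 each.

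The class of basolateral carriers and other exchangers also holds genes not placed on that face here, such as Slc7a10, Slc7a11 and Slc7a15. Its median difference from the WT mean was -0.02 in KO 2 and 0.18 in KO 3, against 0.02, -0.03 and -0.09 in WT. Of 14 genes, 11 had a mean of 1 or more, and 10 of these had a positive fold (median log2 fold 0.14). KO 3 exceeded KO 2 in 9 of the 11. Slc3a2, the heavy chain also called CD98, stood at 5.31 and 5.55 in KO 2 and KO 3, against 5.40, 5.18 and 5.54 in WT. Slc7a7 (y+LAT1), the light chain that exports cationic amino acids, stood at 6.16 and 6.17 in KO 2 and KO 3, against 6.20, 6.01 and 6.49 in WT. Slc7a8 (LAT2), a neutral amino acid exchanger, stood at 4.11 and 4.31 in KO 2 and KO 3, against 4.13, 4.12 and 3.94 in WT. The groups overlapped in all 3.

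Slc16a10 (TAT1), which lets aromatic amino acids leave the cell, stood at 3.97 and 4.32 in KO 2 and KO 3, against 4.18, 3.87 and 3.91 in WT. Slc43a2 (LAT4), a facilitator of large neutral amino acids, stood at 5.86 and 6.14 in KO 2 and KO 3, against 6.05, 5.81 and 5.65 in WT. Slc7a5 (LAT1), the large neutral amino acid exchanger of growing cells, stood at 3.42 and 3.49 in KO 2 and KO 3, against 3.01, 3.25 and 3.66 in WT. In none of these did the groups separate. Slc43a3, a carrier of purine nucleobases despite its family, was highest in KO 3 and WT 2, at 4.01 and 3.97, and lay between 3.41 and 3.58 in the other 3 libraries. Slc7a6 (y+LAT2), a relative of Slc7a7, ranged over 2.39 to 2.88 in KO 2 and KO 3 and 2.45 to 2.71 in WT, and Slc43a1 (LAT3) over 1.55 to 1.78 in KO 2 and KO 3 and 1.51 to 1.69 in WT. Slc7a10 (Asc-1), a small neutral amino acid exchanger of brain, had a mean under 1 and ranged over 0.36 to 1.004 in KO 2 and KO 3 and 0.16 to 1.18 in WT.

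The exchangers with the widest spread were Slc7a15 and Slc7a11. Slc7a15, a light chain of the same family, stood at 3.01 and 4.18 in KO 2 and KO 3, the lowest and the highest of the 5 libraries, against 3.57, 3.31 and 3.31 in WT. Slc7a11 (xCT), which takes up cystine in exchange for glutamate and whose promoter carries the pair of TGATGNAA matches shown above, stood at 2.12 and 1.01 in KO 2 and KO 3, against 0.51, 1.63 and 0.75 in WT. Like Slc15a3 and Slc15a4, it was highest in KO 2 and WT 2.

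Among the SLC38, SLC36 and cationic carriers with a mean of 1 or more described next, the groups overlapped in all but Slc38a10. Of 14 genes in the SNAT (SLC38) and proton-coupled (SLC36) class, 7 had a mean of 1 or more, and their median log2 fold was 0.01. Slc38a2 (SNAT2), the sodium-coupled carrier of small neutral amino acids that cells raise when starved of them, stood at 5.67 and 5.54 in KO 2 and KO 3, against 5.59, 5.60 and 5.77 in WT. Slc38a9, the arginine sensor of the lysosome, stood at 3.14 and 3.42 in KO 2 and KO 3, against 3.21, 3.17 and 2.87 in WT. Slc38a10 had non-overlapping groups within a narrow range, at 4.52 and 4.54 in KO 2 and KO 3, against 4.49, 4.45 and 4.49 in WT. The groups overlapped in the other 4 of the class. Slc38a1 was at 4.62 in both KO 2 and KO 3, against 4.45 to 4.73 in WT, and Slc38a6 at 2.996 and 3.06, against 2.85 to 3.15 in WT. Slc38a7, a lysosomal glutamine carrier, was at 2.52 and 2.97 in KO 2 and KO 3, against 2.73 to 2.86 in WT, and Slc36a4 at 2.16 and 2.43, against 2.31 to 2.39 in WT. Slc7a1 (CAT1), the general carrier of cationic amino acids, stood at 4.42 and 4.31 in KO 2 and KO 3, against 4.20, 4.35 and 4.42 in WT. Slc7a4, an SLC7 member for which transport has not been shown, stood at 2.11 and 1.87 in KO 2 and KO 3, against 2.31, 2.09 and 2.43 in WT, with a log2 fold of -0.29 ± 0.17 (SE, limma adjusted p = 0.99998). The fold of Slc7a4 was -0.17 without KO 3 and -0.41 without KO 2. It was -0.15 with a constant of 5 and -0.36 with a constant of 0.1. KO 1 stood below the other libraries, at 1.82 rescaled, and with it the fold was -0.35. With all 6 libraries as deposited, where KO 1 is not rescaled, the fold was -0.06. P2rx6 overlaps the exons of Slc7a4 on the opposite strand. Slc7a2, a cationic carrier of liver and macrophages, ranged over 1.86 to 2.19 in KO 2 and KO 3 and 1.46 to 2.09 in WT, and Slc7a14 over 0.99 to 1.53 in KO 2 and KO 3 and 1.20 to 1.38 in WT. The other members of these classes, Slc7a3, Slc38a3, Slc38a4, Slc38a5, Slc38a8, Slc38a11, Slc36a2 and Slc36a3, had means under 1.

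Glutamate carriers of glia and neurons were low. Slc1a2 (GLT-1), the main glutamate carrier of astrocytes, stood at 0.57 and 0.48 in KO 2 and KO 3, against 0.15, 0.39 and 0.09 in WT. Its log2 fold was 0.32 ± 0.10 (SE, limma adjusted p = 0.99998), and 1.15 with an added constant of 0.1 or 0.08 with a constant of 5, all values being near 0. Slc1a3 (GLAST), a glial glutamate carrier, stood at 1.10 and 1.54 in KO 2 and KO 3, against 0.89, 0.84 and 1.17 in WT (log2 fold 0.35 ± 0.19 SE, limma adjusted p = 0.99998). KO 1 was below the WT values, at 0.66 rescaled, and with it the fold of Slc1a3 was 0.13. Without KO 3 this fold was 0.13, without KO 2 it was 0.57, and with added constants of 0.1 and 5 it was 0.59 and 0.13. Slc1a4 (ASCT1), an exchanger of alanine, serine and cysteine, stood at 2.84 and 2.803 in KO 2 and KO 3, against 2.64, 2.91 and 2.63 in WT. Slc1a7 and Slc6a15, a neuronal carrier of branched-chain amino acids, had means under 1.

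KO 1 differed from every other library in the carriers of absorbing cells. Of 19 transporters with a mean of 1 or more that KO 1 covers, 10 lay above the highest of the other 5 libraries after rescaling, 6 below the lowest and 3 within their range. Among all 6516 covered genes at that level, 21.5% lay above and 42.2% below. At least 1 log2 unit above the highest were 5 of the 19, where 1.21% of covered genes were, and 0 of the 19 lay as far below, where 5.42% of covered genes did. This sets 1 library against 5, so no test applies.

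Classes were set side by side without a test, over covered members with a mean of 1 or more. Above the range lay 3 of 3 brush border carriers, 6 of 6 basolateral carriers and other exchangers, and 1 of 2 peptide carriers. Above it lay 0 of 5 SNAT carriers, 0 of 2 glutamate and ASC carriers and 0 of 1 cationic carrier. Slc36a1 is counted here with the brush border and not with its family. Among the covered carriers under a mean of 1, Slc6a18 stood at 0.246 in KO 1 against 0.251 to 1.16 in the others, Slc38a4 at 0.14 against 0.53 to 0.97, and Slc6a15 at 0.02 against 0.48 to 0.72. Slc36a1 stood furthest out, at 6.85 in KO 1 against 3.46 to 3.85 in the other 5 libraries. Slc7a8 stood at 6.16 against 3.94 to 4.31, and Slc15a1 at 7.65 against 5.27 to 6.16. Slc7a15 stood at 5.68 against 3.01 to 4.18, and Slc16a10 at 5.61 against 3.87 to 4.32. Just short of 1 unit above the range were Slc3a2, at 6.46 in KO 1 against 5.18 to 5.55, and Slc43a2, at 7.01 against 5.65 to 6.14. Slc6a19, at 7.08 against 5.78 to 6.63, Slc7a7 and Slc3a1 lay above by smaller steps.

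On the low side, Slc1a4 stood at 1.89 in KO 1 against 2.63 to 2.91 in the other libraries, and Slc38a1, a neutral amino acid carrier, at 4.08 against 4.45 to 4.73. Slc38a2 stood at 5.23 against 5.54 to 5.77 and Slc38a9 at 2.61 against 2.87 to 3.42. Slc38a10, Slc38a6 and Slc15a2 lay within the range. Next to Slc36a1 on chromosome 11, Slc36a2 and Slc36a3 were listed at 0 in KO 1, where Slc36a2 (PAT2) stood at 0.57 to 1.40 in the other 5 libraries.

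**Figure D4:**
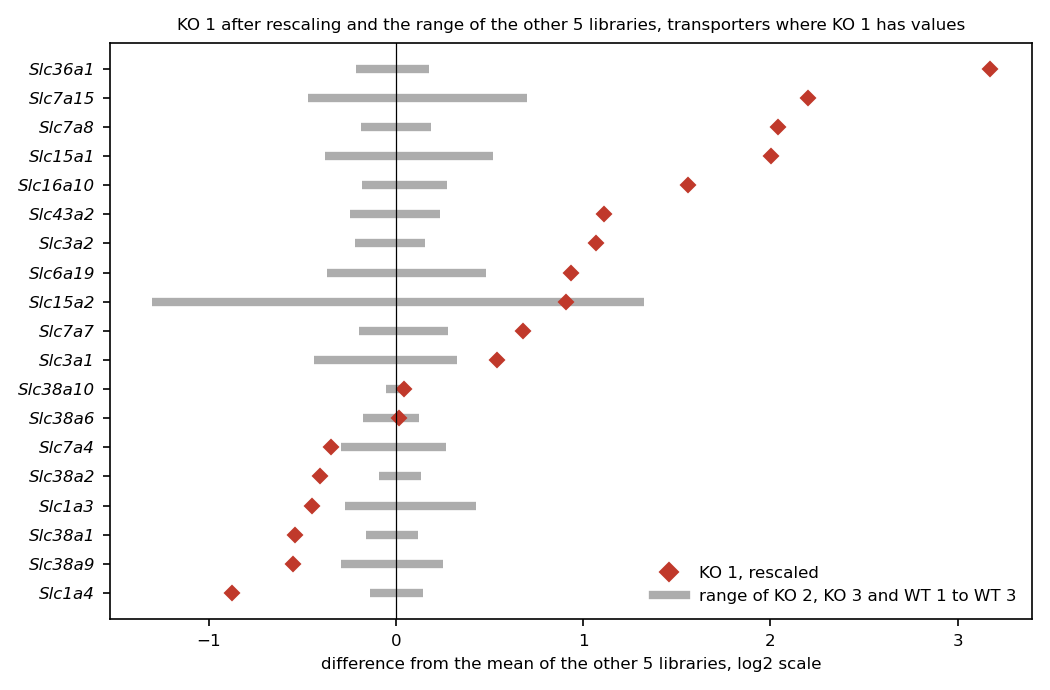
Difference of KO 1 (red diamonds, rescaled) from the mean of the other 5 libraries (horizontal axis, log2 scale) for the 19 covered transporters with a mean of 1 or more; grey bars span KO 2, KO 3 and the 3 WT libraries. Slc36a1 stands 3.17 above the mean of the others, and Slc1a4 stands 0.87 units below it.

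Other genes in KO 1 moved with these carriers. Enterocyte markers that it covers, Vil1, Alpi and Apob, all lay above the other libraries, with Alpi at 7.57 in KO 1 against 5.66 to 6.49. Covered markers of other epithelial cells differed from this. Of 2 goblet markers 1 lay below and 1 within the range, and of 3 stem markers 2 lay below and 1 within. The 1 Paneth marker lay below and the 1 enteroendocrine marker above. The covered smooth muscle markers, 2 of 2, and fibroblast markers, 5 of 5, lay at least 1 log2 unit below. Gata4, which marks duodenum and jejunum, stood at 5.19 in KO 1 against 0.43 to 0.63 in the others, and Fabp6, the ileal bile acid binding protein, at 3.91 against 8.16 to 8.76. Other position markers did not all follow. Of the proximal markers with a mean of 1 or more that KO 1 covers, 1 lay above the other libraries and 1 below. Lct (lactase) stood at 7.05 in KO 1 against 1.08 to 2.01, and Slc40a1, the iron exporter, at 5.15 against 6.30 to 6.67. That mean is taken over the other libraries and leaves out the covered proximal markers Gata4, Gip and Onecut2. Gip stood at 4.02 in KO 1 against 0.27 to 1.22, and Onecut2, low throughout, at 0.55 against 0.12 to 0.42. Of 5 covered distal markers, 4 lay below and Nts, a gut hormone, lay within the range, at 4.42 in KO 1 against 3.92 to 4.52. The Gata4 and Fabp6 levels of the 5 other libraries go against the duodenum of the design text. The part of tissue makeup and of gut position in the carrier levels of KO 1 was not tested.

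The enzymes and partners that work beside these carriers showed no call either. Of 23 brush border peptidases and transporter partners listed, 22 were in the table and tested, 0 were called up and 0 down, and 0 had an unadjusted p under 0.05. Pdzk1, a scaffold of brush border carriers, stood at 3.06 and 3.97 in KO 2 and KO 3, against 3.50, 2.78 and 3.04 in WT. KO 3 exceeded KO 2 in 17 of 20 members with a mean of 1 or more, and WT 2 was lowest in 16. Of the 9 partners with a mean of 1 or more that KO 1 covers, 6 lay above the other libraries, 2 below and 1 within. On the low side, Mep1a, a subunit of meprin, stood at 6.91 in KO 1 against 7.31 to 7.62. At least 1 log2 unit above were 2. Slc9a3 (NHE3), the sodium-proton exchanger that supports proton-coupled uptake, stood at 6.71 in KO 1 against 3.29 to 4.27 in the other libraries. Ace, a peptidase, stood at 7.58 in KO 1 against 5.29 to 5.95.

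The amino acid response driven by the transcription factor ATF4 includes several of the carriers, such as Slc7a11, Slc7a5, Slc3a2 and Slc38a2. Of 29 other genes of this response, 28 were tested, 0 were called up and 0 down, and 1 had an unadjusted p under 0.05. That gene was Pycr1, an enzyme of proline synthesis, which stood at 1.04 and 0.99 in KO 2 and KO 3, against 2.35, 2.26 and 2.31 in WT (limma adjusted p = 0.415). KO 1, outside that test, stood at 0.73 rescaled for Pycr1. All 3 KO libraries were thus below all 3 WT libraries, where 2.72% of covered genes were. The part of tissue makeup and gut position in the KO 1 value was not tested. Asns, the asparagine synthetase that ATF4 induces, stood at 4.38 and 4.46 in KO 2 and KO 3, against 4.12, 4.53 and 5.04 in WT, and Atf4 itself at 5.72 and 5.81, against 5.85, 5.71 and 5.91. The median log2 fold of the 28 was 0.02. Of 26 genes of lysosomal amino acid sensing and mTORC1, 25 were tested, and 0 were called in either direction, with a median of 0.06. The one with the smallest p was Lamtor3, a subunit of the lysosomal Ragulator complex, at 4.20 and 4.22 in KO 2 and KO 3, against 4.40, 4.36 and 4.61 in WT.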

How the data were processed

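The authors deposited 1 table of log values per gene for 6 libraries, read here as log2(abundance + 1). The build is mm10, per the submitters' processing notes. Per the labels' protocols, RNA was extracted with TRIzol and selected for poly(A), and libraries were made with a stranded low-input kit. Aligner, counter, strand setting, abundance unit, log base and constant: not given in the sources used here. If the base were e, folds would grow by a factor of 1.44. Of 32245 rows, 26 with a date for a symbol were left out. GENCODE vM21 (GRCm38, the mm10 assembly) placed 31398 symbols. KO 1 was rescaled by its median linear ratio to the other libraries over 2160 covered genes at 4 or more.

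limma 3.58.1 (R 4.3.3, variance trend, 2-sided) compared KO 2 and KO 3 with WT over genes listed above 0 in 3 or more of the 5, with Benjamini-Hochberg adjustment and a threshold of 0.05. The fit was tried on simulated data. Members, lists and tests were chosen with earlier results of these data known. Library values or ranges are given for members with a mean of 1 or more. Folds are given for members with an unadjusted p under 0.05 and, up to 6 in all, those with a mean of 1 or more and the smallest p. Slc1a1, Slc38a10, and genes outside these rules were named after their values were seen. Alternatives were other filters, scalings, constants, a replicate block, other handling of KO 1 and leaving out each library. Some single genes of the marker and partner lists are not reported here.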

Additional observations from a re-analysis of the deposited data

How the results depend on the processing

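No setting called a transporter. The 1 gene called among all genes was lost, giving 0, with all 6 libraries as deposited, no filter, a mean of 1 or more, an added constant of 0.1, the replicate block and each left-out library (0 to 0). Transporters with an unadjusted p under 0.05, 2 here, numbered 1 with all 6 libraries (1.06% of all genes), 1 with a mean of 1 or more (1.06% of genes), 6 with the replicate block (3.07%) and 2 to 7 with a library left out, where 7 came without KO 2 (5.17%), with the spread of the single KO library left taken from the other group. The median log2 fold of the transporters, 0.06, was -0.076 with all 6 libraries, 0.0063 with median centring, 0.046 with quantile normalization, 0.14 with a mean of 1 or more, 0.15 with a constant of 0.1, 0.042 with a constant of 5 and 0.0195 to 0.16 with a library left out, lowest without KO 3 and highest without KO 2. The folds of Slc1a5 (-1.57) and Slc6a6 (-1.82) turned with all 6 libraries, where KO 1 enters at 0. The cause of the other moves was not tested. The 5 transporters at least 1 unit above the others in KO 1 became 11 with KO 1 as deposited, not rescaled, 7 with the scale taken over covered genes at 1 or more, and stayed 5 to 5 with any other library left out; these settings were added after the data were seen. Replicate numbers are shared by the groups, but with KO 1 out 2 pairs remain and the labels do not say what a number marks. Deviations correlated at 0.277 for number 2 and 0.333 for number 3, and under the replicate block 0 transporters passed. In that block WT 1 stands alone in its number, so the folds equal those without WT 1 (median 0.067 in each) and the 2 settings are not independent. Depth is unknown, and values near 0 limit what Slc15a2 and Slc1a2 can show.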

Other observations

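The enzymes that handle glutamine, arginine and proline inside the cell were also examined. Of 25, all were tested, with 0 called in either direction by limma, 0 at an unadjusted p under 0.05, and a median log2 fold of 0.08. Prodh, which starts proline breakdown, had the smallest p and stood at 4.01 and 4.22 in KO 2 and KO 3, against 3.997, 3.78 and 3.63 in WT. In KO 1, Arg2, the mitochondrial arginase, stood at 5.02 rescaled, against 1.88 to 2.88 in the other 5 libraries, and Glul, the glutamine synthetase, at 3.52 against 4.57 to 5.06. Arg2 varied in the other libraries too, at 2.70 and 1.94 in KO 2 and KO 3, against 2.88, 2.86 and 1.88 in WT.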
